A study of Mus musculus with 6 samples.

Results

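The 5 genes of serine metabolism described here were chosen by symbol from the count table: Phgdh, Psat1 and Psph, which make serine, and Sfxn1 and Sfxn3, which carry it into mitochondria. All 5 were found among 53733 named rows. Cells make serine in the cytosol from 3-phosphoglycerate, an intermediate of glycolysis. PHGDH oxidises it, PSAT1 adds an amino group taken from glutamate, and PSPH removes the phosphate to leave serine. Serine then crosses the inner mitochondrial membrane through sideroflexins such as SFXN1 and SFXN3, and is split there into glycine and a one-carbon unit that folate carries to purine and thymidylate synthesis. Leukaemic cells can also take serine up from their surroundings, so both supply routes are of interest in acute myeloid leukaemia.

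The cells were 1 mouse acute myeloid leukaemia line, made from foetal liver cells with retroviral vectors. The fusion oncogene MLL-AF9 is expressed constantly in both groups, together with a luciferase. FLT3-ITD is a mutant of the growth factor receptor FLT3 with a duplicated stretch that keeps its kinase active, and it is expressed with the reporter DsRED from a promoter that works while doxycycline is given. NSG mice, an immunodeficient strain that lacks B, T and NK cells but keeps its own myeloid and red cells, received 1000000 cells by tail vein and took doxycycline in food and water for 96 h. In the ON group (3 mice) doxycycline was continued, and in the OFF group (3 mice) it was withdrawn for 48 h, which per the labels depletes FLT3-ITD, before viable leukaemic cells of the marrow were isolated by sorting. Their mRNAs were read near the 3' end. The labels give no age, sex or sorting marker. Each library is 1 mouse, but all mice carried the same line, so the spread between replicates is that between hosts of a single line. Setting OFF against ON asks how the serine genes respond in the animal when doxycycline is withdrawn and FLT3-ITD is lost with it. Doxycycline and FLT3-ITD differ together between the groups, and no group differs in doxycycline alone, so their effects cannot be told apart here. The title of the series names serine biosynthesis as a weakness of this leukaemia.

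Totals of named rows ran from 8335234 to 9316361 counts, so 1 count was worth 0.107 to 0.12 CPM, the count as a share of its library's total, before scaling. On the first principal component (67.6% of variance) the ON libraries were at -34.7, -37.3 and -37.5. OFF replicates 1 to 3 were at 21.4, 39.9 and 48.3, so OFF replicate 1 was nearest to ON. OFF replicate 3 stood apart from the other OFF libraries on the second component (13.6% of variance, -29.3 against 23.9 and 14.4). The row of mouse Flt3 held 5.48, 5.81 and 5.71 CPM in the ON mice, against 5.44, 5.90 and 9.13 CPM in the OFF mice. It did not pass the test (adjusted p = 0.387), and as the row of the mouse gene it checks nothing about the transgene. Hoxa9, a gene kept high by MLL fusions, was at 331 CPM in ON and did not pass (adjusted p = 0.543), and the stem cell receptor Kit was below 1 CPM in both groups. Counts of markers called higher are to be read against 17.3% of all tested rows. Summed globin and other erythroid markers (9 genes) were at 150 to 212 CPM in ON and 578 to 934 CPM in OFF, with all 5 tested markers higher and the defining genes Klf1 and Epor below 1 CPM. Of 9 genes of maturing neutrophils, all tested, 6 were higher, with sums of 19600 to 21100 CPM in ON and 16000 to 25100 CPM in OFF. Most of the sum came from S100a8 and S100a9, which were not called (adjusted p = 0.0608 and 0.0666). Their OFF means were 81.7% and 82.9% of the ON means. Cxcr2 was not called either (adjusted p = 0.722). Camp, called higher, measured 2460, 4068 and 6515 CPM in OFF replicates 1 to 3. Of 10 leukaemia and myeloid identity genes 9 were tested and 5 were higher (1910 to 2180 against 3360 to 3620 CPM). The 6 megakaryocyte markers summed to 32.3 to 37 CPM in ON and 55.1 to 64.6 CPM in OFF, nearly all of it from Gp1bb. The 8 resident macrophage markers summed to 42.3 to 47.6 and 33.9 to 39.7 CPM with Adgre1 higher and Vcam1 lower, and stromal, endothelial and lymphoid markers each summed to under 11 CPM in every library, with Lepr, Alpl, Emcn and Tek at 0 in all. The part of these cells in the results below was not tested. In sorted bulk cells, fewer cells of a type and less RNA per cell cannot be told apart.

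The promoter of each gene is shown first. The lines below give the 100 bases before the RefSeq start site (GRCm38.p6), with capitals marking CCAAT or its reverse complement ATTGG, the box bound by the factor NF-Y. Psat1 has a second RefSeq start, which is given as start 2.
Phgdh, chr3:98339970-98340069, minus strand: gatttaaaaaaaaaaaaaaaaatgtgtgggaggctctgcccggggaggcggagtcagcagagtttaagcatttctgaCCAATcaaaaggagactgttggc
Psat1 start 1, chr19:15925060-15925159, minus strand: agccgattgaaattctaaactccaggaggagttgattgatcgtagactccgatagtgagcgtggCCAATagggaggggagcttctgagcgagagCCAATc
Psat1 start 2, chr19:15924623-15924722, minus strand: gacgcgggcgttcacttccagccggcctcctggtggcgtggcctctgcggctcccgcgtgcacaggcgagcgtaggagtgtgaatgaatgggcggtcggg
Psph, chr5:129787254-129787353, minus strand: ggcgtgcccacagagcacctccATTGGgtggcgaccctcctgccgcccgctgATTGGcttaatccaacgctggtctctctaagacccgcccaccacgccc
Sfxn1, chr13:54071745-54071844, plus strand: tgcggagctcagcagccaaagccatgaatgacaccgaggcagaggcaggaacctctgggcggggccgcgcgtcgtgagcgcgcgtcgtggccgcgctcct
Sfxn3, chr19:45047476-45047575, plus strand: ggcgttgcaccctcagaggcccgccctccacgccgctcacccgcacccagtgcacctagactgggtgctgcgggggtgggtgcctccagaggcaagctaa

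Within these 100 bases, the box occurred 1 time in Phgdh, 2 times at start 1 of Psat1 and 2 times in Psph, and did not occur at start 2 of Psat1 or in Sfxn1 and Sfxn3. By the gene spans given below, the 100 bases lie wholly inside the gene for Psat1 (at either start) and Psph. They lie partly inside it for Phgdh and Sfxn3, and outside it for Sfxn1. Of 32817 mouse promoters in the table, 18.9% held at least 1 CCAAT box on either strand in the same stretch and 3.56% at least 2. This box was searched for after the sequences had been read, so these counts describe the sequences only. Sfxn1, which held no box here, fell too (values below). Any part of the box or of NF-Y in the falls was not tested. Over the whole windows of 300 bases (250 before to 50 after the start), 37.4% of promoters held at least 1 box and 11.7% at least 2. These windows held 2 in Phgdh, 3 at start 1 of Psat1 and 2 in Psph, and none at start 2 of Psat1 or in Sfxn1 and Sfxn3. The core of the element bound by ATF4 with C/EBP partners, TGATGNAA, was found in 3.97% of promoters, the E-box CACGTG bound by MYC in 7.15%, and the STAT motif TTCNNNGAA in 8.29%, each on either strand. None of those 3 motifs was found in the 300 bases of any of the 5 genes, which says only that the letters are not in these windows.

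After withdrawal, the 3 synthesis genes and Sfxn1 fell, and Sfxn3 did not pass the test. Of the 5 genes 4 were lower, where 17.5% of all 13652 tested rows were lower and 17.3% higher, and none of the 5 was higher. Because the genes, and the lists further below, were chosen with earlier results of these data known, such shares are background and not a test. Among these 4 genes the size of the fall followed the order of the pathway. It went from 4.15-fold for Phgdh, through 3.21-fold for Psat1 and 2.37-fold for Psph, to 1.62-fold for Sfxn1, although the 95% intervals of neighbours overlap. The order did not continue inside mitochondria. Of the genes called lower there, Shmt2 (log2 fold change -1.25), Mthfd2 (-1.83), Gcsh (-1.71) and Slc25a32 (-0.76) fell more than Sfxn1 (-0.70). Mthfd1l (-0.62) and Dld (-0.47) fell less. Values below are CPM on scaled libraries, and log2 fold changes are OFF minus ON from edgeR's quasi-likelihood test, with p adjusted over all tested rows.

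**Figure D1:**
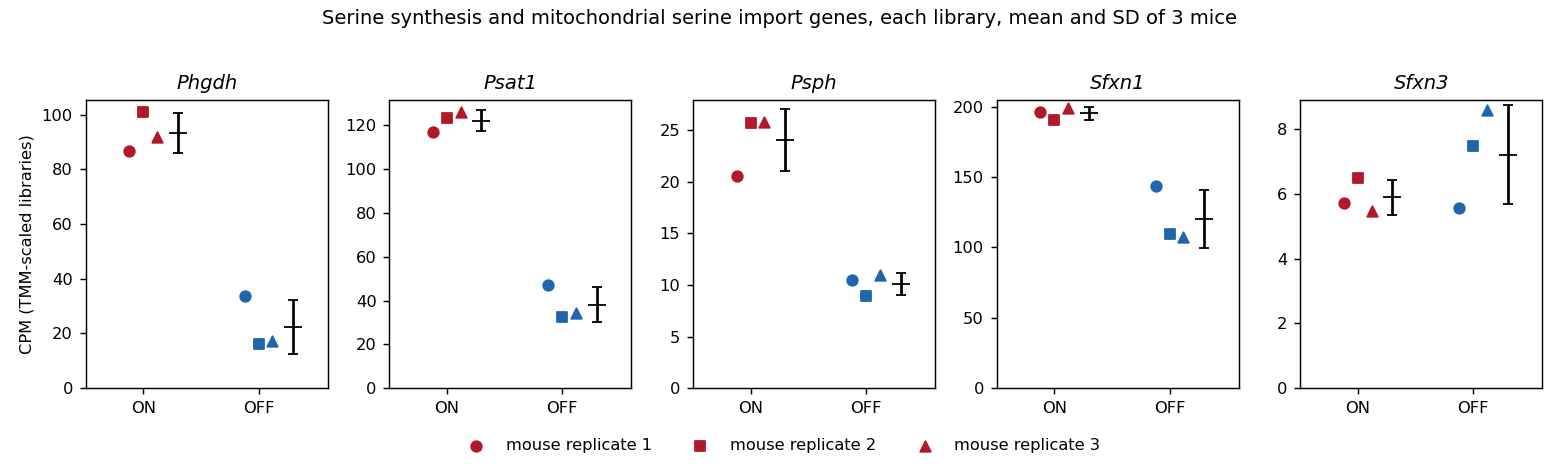
CPM of the 5 genes in each library (y axes from 0, a scale for each gene), with circles, squares and triangles for mouse replicates 1, 2 and 3, red for ON and blue for OFF, and the mean and SD of 3 mice beside them. Every OFF library lies below every ON library for Phgdh, Psat1, Psph and Sfxn1, while the groups of Sfxn3 overlap between 5.55 and 6.49 CPM.

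Phgdh, the first and committed enzyme, lies on chromosome 3 (98313170 to 98339990, minus strand, GENCODE M21 on GRCm38). It measured 86.6, 101 and 91.9 CPM in the ON mice (replicates 1 to 3) and 33.8, 16.3 and 17.3 CPM in the OFF mice. The lowest ON library was above the highest OFF library, and OFF replicate 1 kept more than its group mates. The mean of OFF was 24.1% of that of ON, and the log2 fold change was -2.05 (SE 0.24, 95% interval -2.59 to -1.51, adjusted p = 1.78e-04). Of all tested rows, 0.923% had a lower value. Spread in OFF was wide, at a coefficient of variation of 43.8% against 7.85% in ON. The processed pseudogene Phgdh-ps1 on chromosome 7 held 1 count in 1 library and none in the others.

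Psat1, the transaminase of the second step, lies on chromosome 19 (15904678 to 15947337, minus strand). Both RefSeq starts shown above lie inside this span, and the bases before its upstream end were not searched for motifs. It measured 117, 123 and 126 CPM in the ON mice and 47.2, 32.4 and 34.4 CPM in the OFF mice. The ON libraries differed little from each other (coefficient of variation 3.82%), and all 3 OFF libraries were far below them, with OFF replicate 1 again the highest. The OFF mean was 31.1% of the ON mean, with a log2 fold change of -1.68 (SE 0.14, 95% interval -1.97 to -1.39, adjusted p = 1.03e-06). Only 0.264% of tested rows had a smaller p, whereas 5.16% did for Phgdh, whose fall was larger but whose OFF libraries were more spread.

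Psph, the phosphatase that releases serine, lies on chromosome 5 (129765558 to 129787449, minus strand). It measured 20.6, 25.7 and 25.8 CPM in the ON mice and 10.4, 8.91 and 11 CPM in the OFF mice. The groups did not overlap, ON replicate 1 was the lowest of its group, and OFF replicate 1 lay between the other two OFF libraries. The OFF mean was 42.1% of the ON mean, and the log2 fold change was -1.25 (SE 0.15, 95% interval -1.57 to -0.92, adjusted p = 2.48e-05). Its exons share 452 bases with those of the chaperonin gene Cct6a on the opposite strand. Cct6a fell as well, from 214 to 105 CPM, a log2 change of -1.03 (adjusted p = 1.56e-05). None of the last 500 bases of Psph, where a 3' library takes its reads, is covered by exons of Cct6a. No source used here states the authors' strand setting, and the part of Cct6a reads in the Psph row was not tested. No exon of another gene that overlaps a gene of the set lies in the last 500 bases of Phgdh, Psat1, Sfxn1 or Sfxn3 either.

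Sfxn1, the mitochondrial serine importer, lies on chromosome 13 (54071869 to 54108342, plus strand). It measured 196, 190 and 199 CPM in the ON mice and 144, 110 and 107 CPM in the OFF mice. Every OFF library was below every ON library, and OFF replicate 1 was nearest to ON. The OFF mean was 61.6% of the ON mean, and the log2 fold change was -0.70 (SE 0.12, 95% interval -0.96 to -0.44, adjusted p = 4.91e-04). Of all tested rows, 10.4% had a lower value, a larger share than for any of the synthesis genes.

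Sfxn3, a sideroflexin related to SFXN1 that can also carry serine, lies on chromosome 19 (45047503 to 45056383, plus strand). It measured 5.71, 6.49 and 5.46 CPM in the ON mice and 5.55, 7.46 and 8.58 CPM in the OFF mice, from 44 to 78 counts per library. The groups overlapped, with OFF replicate 1 within the ON range and the other two OFF libraries above it. The log2 fold change was 0.29 (SE 0.21, adjusted p = 0.315), with a 95% interval of -0.16 to 0.74. The interval holds no fall as large as that of Sfxn1, and it does not show that Sfxn3 was unchanged. Across the 4 genes that fell, the groups did not overlap in any, which was so with OFF lower in 24.5% of all tested rows.

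**Figure D2:**
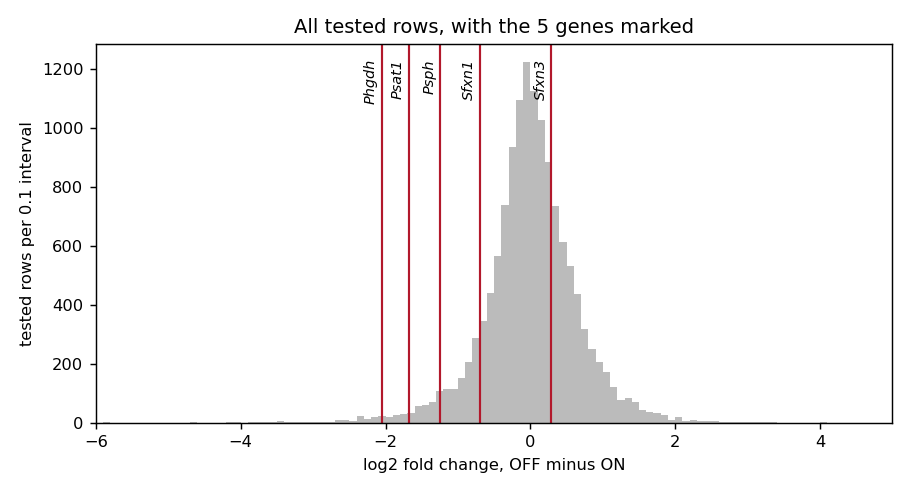
Number of tested rows (y axis) by log2 fold change, OFF minus ON (x axis, intervals of 0.1), with red lines at the 5 genes. Phgdh, Psat1 and Psph lie in the sparse lower tail, with 0.923%, 1.59% and 3.55% of rows below them, and Sfxn3 lies to the right of 0, with 71.1% of rows below it.

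Ratios between genes were taken within each library, where scaling between libraries cancels. Only the change of such a ratio between groups is read here, since its absolute size also depends on how each gene's 3' end is counted. The log2 ratio of Phgdh to Psat1 counts was -0.43, -0.29 and -0.46 in ON and -0.48, -0.99 and -0.99 in OFF. OFF replicate 1 was thus barely below the ON range and the other two OFF libraries were clearly below it, so that the mean change of -0.43 rests mostly on OFF replicates 2 and 3. The ratio of Psat1 to Psph was 2.50, 2.26 and 2.29 in ON and 2.17, 1.86 and 1.64 in OFF, a change of -0.46, with the highest OFF library close to the lowest ON library. Psph to Sfxn1 changed by -0.53, with -3.25, -2.88 and -2.95 in ON and -3.78, -3.61 and -3.28 in OFF. Here, too, the nearest libraries of the groups almost met, at OFF replicate 3 and ON replicate 1.

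The steadiest ratio was that of Psat1 to Sfxn1. It was -0.75, -0.62 and -0.66 in ON and -1.61, -1.76 and -1.64 in OFF, so that Psat1 was on average 1.99-fold lower relative to Sfxn1, with an SD of at most 0.0782 in either group. Both genes were highest in the same OFF library, and their ratio there was like that of the other OFF libraries. Between the importers, Sfxn1 to Sfxn3 was 5.09, 4.86 and 5.17 in ON and 4.68, 3.87 and 3.64 in OFF, on average 1.97-fold lower in OFF. The groups did not overlap in any of the 10 pairs, which was also so, in either direction, for 48.5% of all pairs of tested rows. The direction of each pair restates the order of the 5 fold changes. Pairs that share a gene are not independent of each other. Each pair gave p = 0.1 (0.1 after adjustment over 10 pairs) by a two-sided exact permutation test, the smallest p that 3 against 3 libraries allow, so no single pair can pass 0.05.

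**Figure D3:**
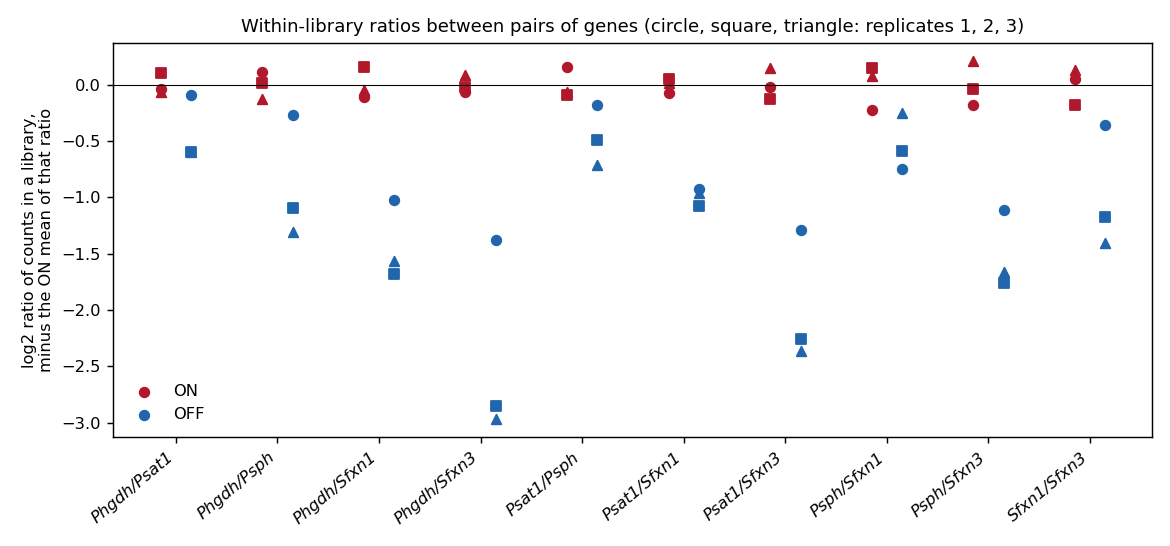
Log2 ratio of counts of each pair of genes within a library (y axis), less the ON mean of that pair, with red for ON and blue for OFF. Each OFF point lies below each ON point of its pair; the drop is smallest for Phgdh to Psat1 (-0.43) and deepest for Phgdh to Sfxn3 (-2.40).

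The OFF libraries differed among themselves in these genes. OFF replicate 1 exceeded the mean of the other two 2.01-fold in Phgdh, 1.41-fold in Psat1 and 1.33-fold in Sfxn1, but 1.05-fold in Psph, and it was at 0.692 of their mean in Sfxn3. It was the highest OFF library in 66.9% of 1685 rows that were called lower with a mean of at least 10 CPM, with a median of 1.14-fold, and in 35.5% of all 8061 rows at that level. Without OFF replicate 1 the log2 fold changes were -2.47 for Phgdh, -1.87 for Psat1 and -0.85 for Sfxn1, and 0.44 for Sfxn3 (adjusted p = 0.105).

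Across the 6 libraries, log2 CPM of the 4 genes that fell correlated with each other at 0.919 to 0.993, over libraries that include the difference between groups. Sfxn3 correlated negatively with each of them (-0.805 to -0.53). Among 7010 named rows with at least 10 CPM, those most like Phgdh were the translation initiation subunit Eif3b (log2 fold change -0.91), the snoRNP protein Nhp2 (-1.19) and the ribosome assembly factor Noc2l (-1.19). Closest to Psat1 were the origin recognition subunit Orc2 (-1.17), the nucleolar protein Nol10 (-1.28) and the initiation factor Eif1a (-1.87). Closest to Psph were Fam162a (-0.55), the demethylase Alkbh1 (-1.10) and the translation factor Eif4g2 (-0.75), and closest to Sfxn1 the chaperonin subunit Tcp1 (-0.70), the Y-box protein Ybx3 (-1.60) and Pa2g4 (-1.25). Every row named here reached r = 0.988 or more over 6 libraries. For Sfxn3 they were the acyltransferase Agpat2 (0.34), Rapsn (0.48) and Prr14 (0.30), none of which passed the test (adjusted p = 0.0745 to 0.192). Correlations above 0.9 were common for the genes that fell, with 14.6% to 17.0% of rows for each against 2.17% for Sfxn3.

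Beyond the 5 genes, lists for the steps around them were counted, each beside the 17.5% of rows lower and 17.3% higher overall and an overall median of 0.00. Enzymes that consume serine were lower in 3 of 10 tested members and higher in none, with a median log2 fold change of -0.35. Shmt2, the mitochondrial hydroxymethyltransferase that splits imported serine, measured 78.6, 113 and 97.0 CPM in the ON mice and 50.8, 35.3 and 35.0 CPM in the OFF mice (change -1.25, adjusted p = 9.58e-05). Again no libraries overlapped and OFF replicate 1 was the highest of its group. Its cytosolic counterpart Shmt1 changed by -0.62 and the cytosolic seryl-tRNA synthetase Sars by -0.63. The enzymes that put serine into lipids gave small values: -0.05 and -0.06 for Sptlc1 and Sptlc2 of sphingolipid synthesis, and -0.12 and -0.30 for the phosphatidylserine synthases Ptdss1 and Ptdss2 (adjusted p = 0.398 to 0.808). The racemase Srr (-0.40, adjusted p = 0.0768), the mitochondrial Sars2 (-0.30) and the dehydratase Sds (-0.73, adjusted p = 0.189) did not pass, although Sds did without OFF replicate 3 (adjusted p = 0.0462). Cbs, Sdsl and Sptlc3 were too low to test, with Sptlc3 at 0 counts in every library.

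Inside mitochondria, 5 of 6 tested folate and glycine cleavage genes were lower, with a median of -0.73 and none higher. Mthfd2, the folate dehydrogenase that handles the one-carbon unit released from serine, measured 107, 137 and 147 CPM in the ON mice and 43.2, 32.5 and 34.3 CPM in the OFF mice (-1.83). Gcsh, the carrier protein of glycine cleavage, fell from 31.0 to 9.50 CPM (-1.71), and the formate-producing Mthfd1l changed by -0.62. The shared dehydrogenase Dld changed by -0.47 (adjusted p = 0.00848, but 0.0544 without ON replicate 3). The folate carrier Slc25a32 changed by -0.76 (adjusted p = 0.0223). This call did not hold when ON replicate 2, ON replicate 3 or OFF replicate 1 was left out (0.0875, 0.0814 and 0.06), so that 3 of 6 were lower without ON replicate 3. Mthfd2l did not pass (-0.70, adjusted p = 0.145). Aldh1l2 was too low for the filter, at 10, 15 and 20 counts in ON and 2, 4 and 1 counts in OFF. It passed where no filter was applied (adjusted p = 7.28e-05). In that edgeR run the adjusted p of Mthfd2 was 3.91e-45, against 8.29e-07 with the filter, so its p values cannot be set beside the others. Gldc and Amt, the other specific subunits of glycine cleavage, had at most 10 counts in any library and were not tested. Amt went the other way from Aldh1l2, at 3, 1 and 4 counts in ON and 10, 6 and 6 counts in OFF. It did not pass in the edgeR run with no filter (adjusted p = 0.21).

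The other sideroflexins, whose transport roles are less well known, had a median of 0.05, with 1 of 3 lower and none higher. Sfxn4 measured 5.71, 4.67 and 6.20 CPM in the ON mice and 3.55, 2.56 and 2.97 CPM in the OFF mice (-0.86, adjusted p = 0.0134). That call was lost without ON replicate 1 or 3 or OFF replicate 2 (0.0538, 0.0659 and 0.0617). Sfxn2 and Sfxn5 gave 0.05 and 0.11 (adjusted p = 0.853 and 0.868). Thus 2 of 5 sideroflexins, Sfxn1 and Sfxn4, were called lower.

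Carriers that bring serine in across the plasma membrane were lower in 3 of 4 tested members and higher in none, with a median of -0.71. Slc1a4, a neutral amino acid exchanger that accepts serine, measured 5.25, 5.01 and 4.84 CPM in the ON mice and 0.111, 0.780 and 0.440 CPM in the OFF mice (-3.46, adjusted p = 2.01e-05), with OFF replicate 1 the lowest of its group. These OFF values rest on 1, 7 and 4 counts, and the change was -4.12 without OFF replicate 2 and -4.10 on the deposited log2 values. Slc1a5, the related glutamine and serine exchanger, fell from 72.3 to 37.8 CPM (-0.94), and Slc38a1 from 198 to 142 CPM (-0.48). Slc38a2 gave -0.24 (adjusted p = 0.104, or 0.0314 without OFF replicate 3). Slc38a4, Slc38a5, Slc7a10 and Slc6a14 were too low to test.

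Upstream, the glycolytic enzymes around 3-phosphoglycerate were lower in 3 of 9 tested members and higher in none, with a median of -0.11. Pgk1, which makes 3-phosphoglycerate, gave -0.32 (adjusted p = 0.0295), a call lost with a replicate block, without any 1 ON library and without OFF replicate 2 (0.0565 to 0.114). Pgam1, which competes with PHGDH for the same substrate, gave -0.04 (adjusted p = 0.825), and Pkm gave 0.15. Eno1 changed by -0.66 and Gapdh by -0.48. Several of these genes have near-identical copies in the genome (Eno1b, and pseudogenes of Gapdh, Pgk1 and Pgam1) between which reads may have been split, so their values are uncertain.

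Of 7 regulators reported to act on serine synthesis genes, 1 of 6 tested was higher and 2 were lower (median -0.03). Atf4, the stress response factor that activates Phgdh, Psat1 and Psph in many cells, measured 365, 307 and 348 CPM in the ON mice and 140, 128 and 112 CPM in the OFF mice (-1.43, adjusted p = 1.04e-06). Myc measured 20.7, 20.2 and 26.0 CPM in the ON mice and 7.11, 7.02 and 8.25 CPM in the OFF mice (-1.58, adjusted p = 6.05e-06). In both, all OFF libraries were below all ON libraries, and OFF replicate 1 did not stand out in Myc. The demethylase Kdm4c gave 0.58 (adjusted p = 0.0469), a call that was lost in 9 of 12 other settings, among them leaving out any 1 ON library or OFF replicate 1 or 2 (0.0756 to 0.177). Nfe2l2, which drives the antioxidant response, gave 0.09, the Atf4 partner Cebpg -0.14 and the methyltransferase Ehmt2 0.11 (adjusted p = 0.459 to 0.59).

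**Figure D4:**
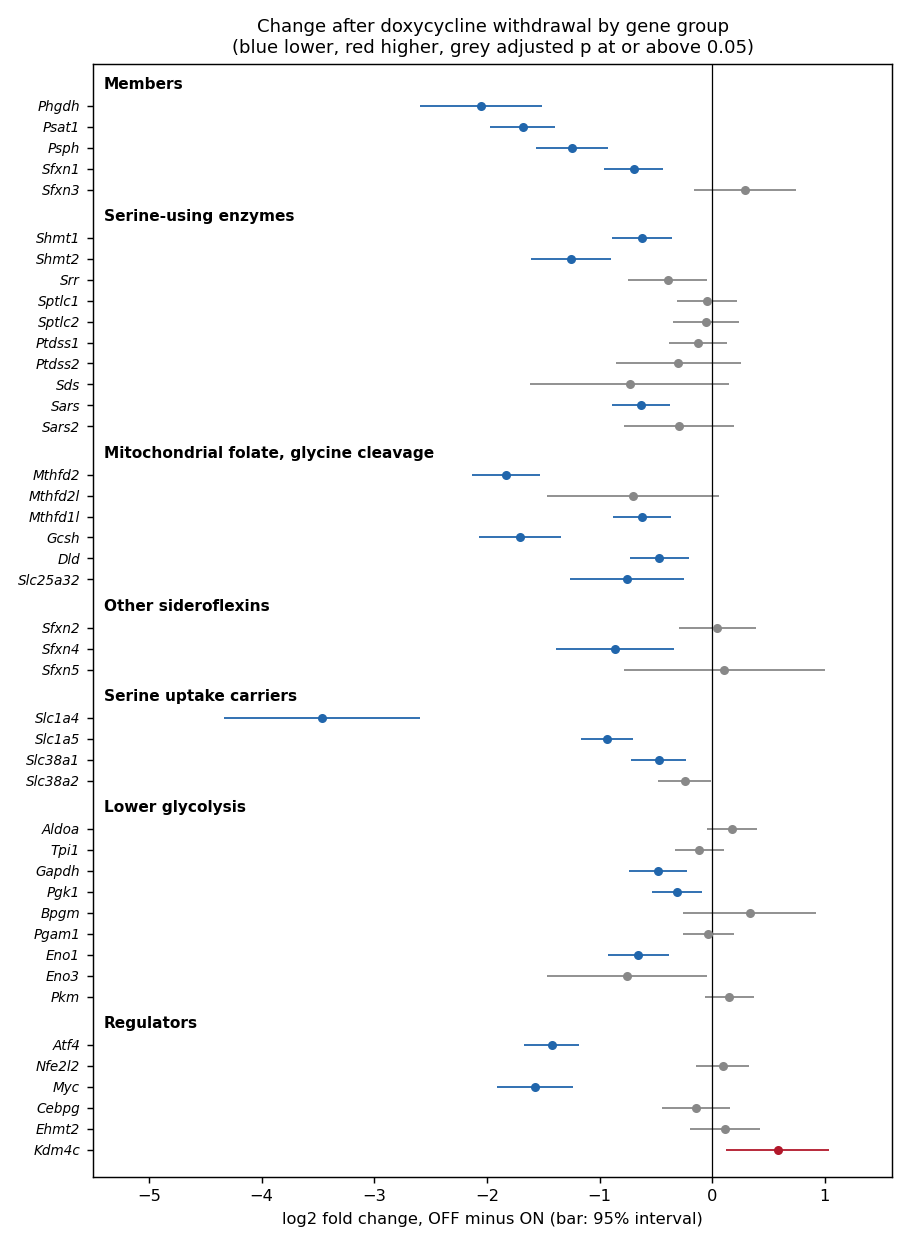
Log2 fold change, OFF minus ON (x axis, with bars for the 95% interval), of the 5 genes and the 38 tested genes of the surrounding lists, in blue where lower, red where higher and grey where the adjusted p was at or above 0.05. The points of the 3 synthesis genes, Mthfd2, Gcsh, Shmt2, Slc1a4, Atf4 and Myc lie left of -1, while Sptlc1, Sptlc2, Pgam1 and Sfxn2 lie near 0.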

How the data were processed

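RNA of sorted leukaemic cells from 6 mice went into 3'-end libraries (Lexogen QuantSeq), per the labels' protocols. The submitters' processing notes name HISAT2 2.0.4, featureCounts of Subread 1.6.3, cutadapt 1.9.1, limma 3.42.2 and build mm10. Neither the annotation nor the strand setting is given. Raw counts, as deposited by the authors, filled 54838 rows; 1105 without a name (0.145% to 0.172% of counts) were left out. The authors' deposited table of log2 values (12287 rows, near-equal column distributions) served as an alternative only.

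Counts were fitted in R 4.3.3 with edgeR 4.0.16: filterByExpr (minimum count 10, minimum total 15), TMM scaling, robust glmQLFit and glmQLFTest with no covariate, and Benjamini-Hochberg adjustment over 13652 rows at 0.05. The SE is the fold change divided by the square root of F. Ratios used log2 of counts plus 0.5, and correlations log2 CPM with a prior count of 2. The same replicate numbers did not deviate together between groups (r = 0.035, -0.076 and -0.05), so they were not taken as pairs. Replicates differed by more than sampling noise (chi-square per degree of freedom 2.98 to 39.5). Alternatives used DESeq2 1.42.0 and limma 3.58.1.

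Named genes were the 5 genes, Flt3, the lists around serine, rows named after a member, genes overlapping a member's exons, and the 3 most correlated rows per member with at least 10 CPM, predicted genes left out. The members and lists were chosen with earlier results of these data known. Promoters came from RefSeq (GRCm38.p6; all 5 genes matched), coordinates from GENCODE M21 (GRCm38, the build mm10). Protein sequences were not used here.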

Additional observations from a re-analysis of the deposited data

How the results depend on the processing

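Phgdh, Psat1, Psph and Sfxn1 stayed lower with an adjusted p under 0.05, and Sfxn3 stayed without a call, in each alternative run (DESeq2, RLE scaling, no filter, at least 10 CPM in 3 libraries, a replicate block, no ribosomal RNA or mitochondrial rows, limma on the deposited log2 values, and each library left out). Sfxn3 was not tested at 10 CPM. As said above, p values of the run with no filter cannot be set beside the others, so for the 5 genes only its directions are read. Leaving out each library gave log2 fold changes of -2.47 to -1.87 for Phgdh, -1.87 to -1.58 for Psat1, -1.35 to -1.16 for Psph, -0.85 to -0.62 for Sfxn1 and 0.15 to 0.44 for Sfxn3. With the replicate block they were -2.11, -1.70, -1.24, -0.71 and 0.28, and 4403 rows were called in place of 4746 (3293 to 5444 without each library). Lists moved as follows. Lower mitochondrial folate genes numbered 3 to 6 and lower other sideroflexins 0 to 1 without each library, and 0 of the latter at 10 CPM, where 1 was tested. Higher uptake carriers numbered 1 with no filter (Slc38a4, 0 counts in ON), and higher glycolytic genes 1 with the deposited log2 values (Aldoa, adjusted p = 0.05 after rounding). Higher regulators (Kdm4c) numbered 0 with DESeq2, no filter, the replicate block and the deposited log2 values, and 0 to 1 without each library; the cause was not tested. They numbered 0 at 10 CPM as well, where Kdm4c was not among the rows tested. All pair ratios kept their direction. Sfxn3 had the fewest counts of the 5 genes (44 to 78 per library), but Sfxn4 was called at 23 to 50, and the part of depth in the missing Sfxn3 call was not tested. As PCR copies were not marked, counting error is only part of the error.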
